A study of Mus musculus with 24 samples.

Results

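The hepatocyte supplies most of the protein carried in blood plasma, and 38 genes of that programme were followed in 4 mouse tumour cell lines after editing of B2m. They were taken by symbol from the table of each line, out of 34866 genes listed in at least 1 table. By role they were 8 carrier proteins of plasma, 8 apolipoproteins, 8 genes of coagulation and fibrinolysis, 6 protease inhibitors and matrix-binding proteins, and 8 transcription factors of the liver. The liver line was Hepa1-6, a hepatocellular carcinoma, and the other lines were AKR (esophageal carcinoma), LLC1 (Lewis lung carcinoma) and MC38 (colon adenocarcinoma). Each line carried a guide RNA against B2m, the light chain of MHC class I (sgB2m), or a non-targeting guide (sgNT). Each of the 8 groups had 3 bulk RNA-seq libraries of cells grown in DMEM with serum and given no other agent per the labels. Clonal or pooled origin of the edited cells is not stated in the labels, nor whether the 3 libraries came from separate cultures, so the p-values measure only the spread between these libraries, which may be technical.

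Plasma protein genes are switched on in hepatocytes by a small network of transcription factors that bind each other's genes as well as the promoters and enhancers of their targets. HNF4A, the FOXA proteins and the C/EBP proteins are among its best known members. Albumin and alpha-fetoprotein are neighbours of one gene family, and the fetal liver and many liver tumours make alpha-fetoprotein while the adult liver makes almost only albumin. A liver tumour line such as Hepa1-6 therefore holds part of the adult programme and part of the fetal one. Bulk RNA-seq cannot tell fewer cells that express a gene from less RNA of it in each cell.

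Values are normalised counts, which are read counts divided by the size factor of the library, unless a sentence names another unit. The 24 libraries held between 25 and 49.7 M counted reads, and the Hepa1-6 libraries between 25 and 35.4 M. B2m fell in Hepa1-6 from 6578 ± 87.8 to 2574 ± 112 (SD, n = 3), which matched the labels. Mitochondrial transcripts took 4.1 to 4.32% of the reads in the Hepa1-6 sgB2m libraries and 4.97 to 5.18% in the sgNT libraries. The part of that difference in the results below was not tested, except that the share of reads was also computed with mitochondrial transcripts left out.

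Hepa1-6 expressed most of the programme, with gaps. Reads fell on 35 of the 38 genes, and 30 passed the filter for testing, which kept genes that reached 3.5 on the log2 scale in 3 or more libraries of the line. Apoc3, Apoa4 and Vtn had no read in any of the 6 libraries, which allows a level of up to 0.0175 RPM (reads per 1 M counted reads) over the line. The filter left out 5 genes with 6 to 42 reads over the 6 libraries, namely the antithrombin gene Serpinc1 (42 reads), the coagulation factors F5 (32), F10 (8) and F7 (6), and plasminogen, Plg (10). Per kilobase of exon, by the union of a gene's annotated exons, the highest level in sgNT was that of Alb, at 2228 ± 19.4 RPM per kilobase. Afp (1993 ± 24.1), the iron carrier Trf (940.6 ± 4.29), the lipoprotein ligand Apoe (787.3 ± 11.1) and the retinol carrier Rbp4 (582.3 ± 1.86) came next on that scale. The 3 libraries of each of these 5 genes lay apart from those of the next in the order. Without division by length, Afp stood above Alb in sgNT, at 6712 ± 81.2 against 5218 ± 45.4 RPM. Transcription factors stood lower, with Hnf4a at 52.1 ± 2.08, Foxa2 at 29.4 ± 1.71 and the bile acid receptor Nr1h4 at 0.859 ± 0.102 RPM per kilobase.

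**Figure D1:**
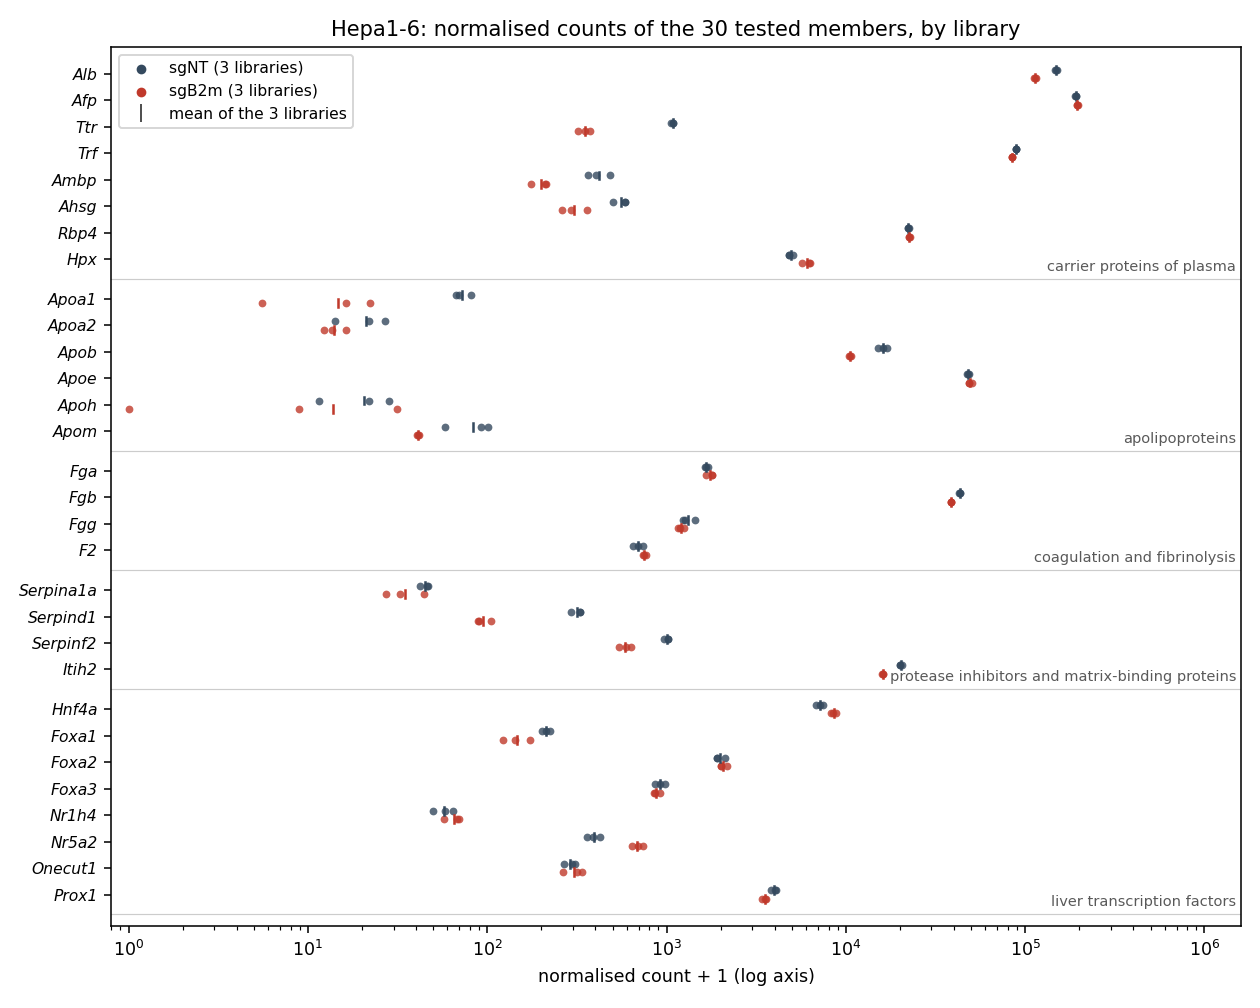
Normalised counts plus 1, on a log axis, of the 30 genes tested in Hepa1-6, with 1 point per library and a bar at the mean of each group of 3. Alb, Afp and Trf lie at the top of the range, and the sgB2m points of Ttr, Ambp, Apoa1 and Serpind1 lie left of all their sgNT points.

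In Hepa1-6, sgB2m cells had less mRNA of many secreted plasma proteins than sgNT cells. Of the 30 genes tested, 14 were lower and 4 higher in sgB2m, and 12 did not pass, by limma's moderated test at an adjusted p under 0.05. Over all 14910 genes tested in the line, 19.2% were called lower and 18.6% higher. At least 2-fold falls numbered 4 of 30, against 1.12% of all genes, and at least 2-fold rises 0 of 30, against 2.74%. The median log2 fold change of the 30 was -0.17, beside -0.0093 over all genes tested. The 30 are those that passed the filter, and not all 38, which were chosen with earlier results of these data known. They include 8 genes with at least 10000 normalised counts in sgNT, where small changes can be called. Of the 14 lower calls, 5 fell on these 8, such as Trf (1.06-fold) and Fgb (1.12-fold). The shares over all genes are not matched to the 30 in level. Together the 38 genes took 1.99% ± 0.0113 of the counted reads in sgB2m and 2.13% ± 0.0109 in sgNT (SD, n = 3). Most of the difference of -0.14 percentage points was that of Alb, at -0.118, and without Alb and Afp it was -0.0473. All 3 sgB2m libraries lay below all 3 sgNT libraries in the share of the 38 genes (exact permutation test, two-sided, p = 0.1, the smallest that 3 against 3 libraries allow).

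**Figure D2:**
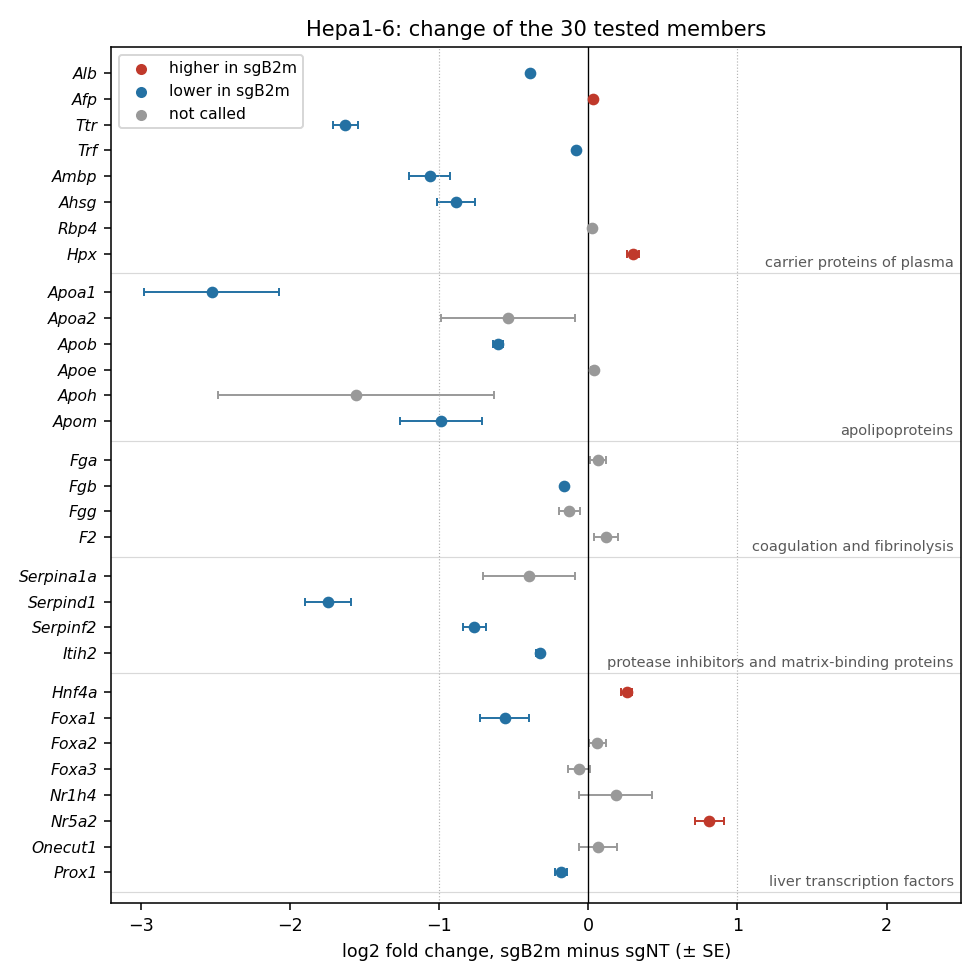
Log2 fold change of each of the 30 genes tested in Hepa1-6, as sgB2m minus sgNT with its standard error, grouped by role. Apoa1 has the lowest value at -2.52, Nr5a2 the highest at 0.81, and the dotted lines mark a 2-fold change.

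Among the carrier proteins, 5 of 8 fell, 2 rose and 1 did not pass, beside 19.2% lower and 18.6% higher over all genes tested in the line. Albumin, Alb (ENSMUSG00000029368, chromosome 5, 90460897 to 90476602, plus strand, mm10), had 112044, 113087 and 115174 normalised counts in the 3 sgB2m libraries and 146402, 148791 and 150396 in the 3 sgNT libraries. The groups lay well apart, and the log2 fold change was -0.39 ± 0.015 (SE, adjusted p = 1.49e-11), a 1.31-fold fall. Its fetal neighbour Afp, which starts 14134 bases beyond the end of Alb, had 195802, 195747 and 195148 in sgB2m and 188946, 193198 and 191050 in sgNT. The groups did not overlap, but the difference was 0.03 ± 0.012 on the log2 scale (adjusted p = 0.038), and the call ended in 9 of the 14 alternatives run, with adjusted p up to 0.817. Reads of Alb per read of Afp, a ratio free of the size factors and chosen after its values were seen, were 0.572, 0.578 and 0.59 in sgB2m and 0.775, 0.77 and 0.787 in sgNT. Alb thus had fewer reads than Afp in every library of both guides. Per kilobase, the ratios were 1.11 to 1.13 in sgNT and 0.823 to 0.849 in sgB2m. That scale divides by the union of all annotated exons, 2342 bases for Alb and 3368 for Afp. Which of the 2 genes stands higher in sgNT therefore depends on these lengths, while the fall of the ratio does not.

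The largest change of a carrier was that of transthyretin, Ttr, which transports thyroid hormone and the retinol-binding protein. It had 371.9, 321.2 and 351.2 normalised counts in sgB2m and 1080, 1092 and 1063 in sgNT. The fall was 3.1-fold (-1.63 ± 0.084, adjusted p = 5.47e-10). Rbp4, the protein that Ttr carries in plasma, did not pass, with 22606 ± 227 in sgB2m and 22262 ± 101 in sgNT (0.02 ± 0.02, adjusted p = 0.431). Ambp, which encodes both alpha-1-microglobulin and bikunin, had 209.2, 211.8 and 173.9 in sgB2m against 404.7, 481.9 and 364.3 in sgNT. That was a 2.09-fold fall with no overlap (-1.06 ± 0.14, adjusted p = 1.47e-05). The fetuin gene Ahsg, an inhibitor of calcification, fell 1.85-fold, from 558.5 ± 50.5 to 303.2 ± 52 (adjusted p = 4.02e-05). Transferrin, Trf, fell by a small amount, from 88894 ± 180 to 84113 ± 360 (-0.08 ± 0.014, adjusted p = 0.000243), and lost its call without the intensity trend of the variance (adjusted p = 0.155). The haem scavenger Hpx rose 1.23-fold, from 4923 ± 144 to 6054 ± 327 (0.30 ± 0.041, adjusted p = 3.17e-05).

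The apolipoproteins package lipid for transport, and 3 of the 6 tested fell, 3 did not pass and none rose. Over all genes tested in the line, 19.2% were lower and 18.6% higher. Apoa1 (chromosome 9, 46228580 to 46230466, plus strand), the main protein of high-density lipoprotein, had the lowest fold change of all 30 genes. Its counts were 21.1, 15.2 and 4.52 in sgB2m and 80, 68.8 and 65.6 in sgNT. Those are 39 reads over the 3 sgB2m libraries and 232 over the 3 sgNT libraries, and the groups did not overlap. The fold change was 5.75-fold lower (-2.52 ± 0.45, adjusted p = 0.000381), with a wide error at this depth. Without sgB2m replicate 3, which had 4 reads, it was 3.81-fold (-1.93, adjusted p = 0.000333). Apob, the scaffold of very low-density lipoprotein, was expressed far more strongly and fell 1.52-fold, from 16031 ± 918 to 10533 ± 159 (-0.60 ± 0.034, adjusted p = 1.78e-09). Apom, a carrier of sphingosine 1-phosphate, fell 1.98-fold, from 82.8 ± 22.9 to 40.1 ± 0.512 (adjusted p = 0.00958), and lost its call without sgNT replicate 1 (adjusted p = 0.0572). Apoe did not pass, at 49214 ± 1152 and 47912 ± 680 (0.04 ± 0.02, adjusted p = 0.142), and passed as higher when libraries were scaled to their total reads (adjusted p = 0.0319). Apoa2 and Apoh were near the limit of detection, with 104 and 98 reads over the 6 libraries. Apoh had 0, 30.4 and 7.9 normalised counts in the sgB2m libraries, against 20.9, 27.3 and 10.5 in sgNT, so its -1.56 ± 0.93 did not pass (adjusted p = 0.212). It passed without sgB2m replicate 2 (-2.69, adjusted p = 0.0229). Apoa1 lies in 1 cluster with Apoc3, 2466 bases away, and Apoa4, both without reads.

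Of the genes of coagulation and fibrinolysis, 1 of the 4 tested fell and 3 did not pass. That share, 25%, is near the 19.2% lower over all genes tested in the line. The fibrinogen chains Fga, Fgb and Fgg sit side by side on chromosome 3, with 11026 bases between Fgg and Fga and 6513 between Fga and Fgb, and their products form 1 hexamer. They were at unlike levels, with 397.3 ± 2.14 RPM per kilobase for Fgb in sgNT, 22 ± 2.06 for Fgg and 19.5 ± 0.415 for Fga. Fgb fell 1.12-fold, from 43089 ± 388 to 38546 ± 110 (-0.16 ± 0.017, adjusted p = 1.98e-06). Fga (0.07 ± 0.052, adjusted p = 0.358) and Fgg (-0.13 ± 0.07, adjusted p = 0.169) did not pass. Prothrombin, F2, did not pass either, at 749.4 ± 15.3 in sgB2m and 691.4 ± 44.2 in sgNT (adjusted p = 0.264). F7 and F10, neighbours on chromosome 8 with 1498 bases between them, had reads in sgNT libraries only, 6 and 8 in all, which is at a level where a difference was not detectable.

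Of the protease inhibitors and matrix-binding proteins, 3 of the 4 tested fell and 1 did not pass, beside 19.2% lower over all genes tested in the line. Serpind1, the thrombin inhibitor heparin cofactor II (chromosome 16, 17331371 to 17343575, plus strand), had 103.5, 88.2 and 89.2 normalised counts in sgB2m and 330.1, 326.7 and 291.5 in sgNT. It fell 3.35-fold with no overlap (-1.75 ± 0.15, adjusted p = 2.22e-07). The plasmin inhibitor Serpinf2 fell 1.7-fold, from 998.8 ± 30.3 to 588.3 ± 43.6 (adjusted p = 1.36e-06). Itih2, a heavy chain that is joined to bikunin and binds hyaluronan, fell 1.25-fold, from 20176 ± 297 to 16077 ± 154 (adjusted p = 1.39e-08). The alpha-1-antitrypsin gene Serpina1a did not pass, on 239 reads over 6 libraries (-0.40 ± 0.31, adjusted p = 0.347), and its reads can be confused with those of its close paralogs.

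Of the 8 transcription factors 2 rose, 2 fell and 4 did not pass, with a median of 0.06. These shares, 25% in each direction, are near those over all genes tested in the line (18.6% higher and 19.2% lower). Hnf4a, the nuclear receptor at the centre of the hepatocyte network, had 8517, 8292 and 8856 normalised counts in sgB2m and 7153, 6851 and 7493 in sgNT. It rose 1.19-fold with no overlap (0.26 ± 0.036, adjusted p = 4.27e-05). Nr5a2, a nuclear receptor that acts on bile acid and lipoprotein genes, rose 1.75-fold, from 391.8 ± 34 to 687.5 ± 48.9 (0.81 ± 0.097, adjusted p = 7.5e-06), and this was the highest fold change of the 30. The pioneer factor Foxa1 fell 1.48-fold, from 212.6 ± 11.3 to 144.9 ± 25.2 (-0.56 ± 0.16, adjusted p = 0.0124), and lost its call without sgB2m replicate 2 (adjusted p = 0.0565). Its paralogs Foxa2, which was expressed more strongly (1982 ± 128 in sgNT), and Foxa3 (916.3 ± 58.5) did not pass, with 0.06 ± 0.057 (adjusted p = 0.447) and -0.06 ± 0.072 (adjusted p = 0.551). Prox1, needed for the growth of the liver bud, fell 1.13-fold (-0.18 ± 0.04, adjusted p = 0.00192). Nr1h4 (0.18 ± 0.24, adjusted p = 0.605) and Onecut1 (0.07 ± 0.13, adjusted p = 0.731) did not pass.

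Changes were spread over the whole range of expression, with wider errors at low levels. The 8 genes with at least 10000 normalised counts in sgNT had log2 fold changes between -0.60 and 0.04, and standard errors of at most 0.034. The 7 genes between 1000 and 10000 lay between -1.63 and 0.30, the 9 genes between 100 and 1000 between -1.75 and 0.81, and the 6 genes under 100 between -2.52 and 0.18. Standard errors in the last of these classes ran from 0.24 to 0.93. Exons of 10 of the 38 genes overlap exons of another annotated gene, 8 of them on the opposite strand, and the libraries were strand-specific per the labels' protocols, while the strand setting of the counting is not given in the sources used here.

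Promoter sequences are shown for Alb and Afp, which neighbour each other and gave unlike changes, and for Apoa1 and Serpind1, the genes with the lowest fold changes of the 30. Each is the RefSeq window (GRCm38.p6) from 250 bases before to 50 bases after the annotated start, 5′ to 3′ on the gene's strand, which is plus for all 4. Capitals mark matches on either strand to CAAAGTCCA (HNF4), TGTTTAC or TGTTTGC (FOXA), TTGCNNAA (C/EBP) and TATAAA (the core promoter's TATA element). The windows are chr5:90460620-90460919 for Alb, chr5:90490464-90490763 for Afp, chr9:46228380-46228679 for Apoa1 and chr16:17331121-17331420 for Serpind1.
Alb: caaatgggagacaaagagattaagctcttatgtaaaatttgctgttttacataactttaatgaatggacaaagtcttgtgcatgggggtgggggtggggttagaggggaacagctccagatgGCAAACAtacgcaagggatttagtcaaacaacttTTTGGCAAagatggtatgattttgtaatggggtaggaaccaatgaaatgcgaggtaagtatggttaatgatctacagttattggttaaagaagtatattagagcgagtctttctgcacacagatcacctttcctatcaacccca
Afp: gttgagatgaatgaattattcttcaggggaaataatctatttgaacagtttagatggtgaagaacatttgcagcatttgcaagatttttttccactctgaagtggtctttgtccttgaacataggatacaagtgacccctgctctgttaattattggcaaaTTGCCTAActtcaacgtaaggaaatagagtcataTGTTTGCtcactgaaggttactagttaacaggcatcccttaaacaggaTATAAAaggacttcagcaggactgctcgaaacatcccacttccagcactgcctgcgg
Apoa1: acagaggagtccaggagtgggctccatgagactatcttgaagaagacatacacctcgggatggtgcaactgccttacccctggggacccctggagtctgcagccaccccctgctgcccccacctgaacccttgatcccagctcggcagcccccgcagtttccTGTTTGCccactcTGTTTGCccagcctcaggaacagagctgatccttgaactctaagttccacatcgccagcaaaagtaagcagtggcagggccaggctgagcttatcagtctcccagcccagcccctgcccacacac
Serpind1: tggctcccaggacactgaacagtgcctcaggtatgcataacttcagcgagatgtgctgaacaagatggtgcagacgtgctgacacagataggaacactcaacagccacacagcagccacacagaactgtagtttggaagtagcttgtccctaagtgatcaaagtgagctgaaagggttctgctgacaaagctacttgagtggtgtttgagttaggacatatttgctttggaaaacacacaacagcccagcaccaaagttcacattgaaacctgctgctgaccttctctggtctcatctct

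The Alb and Afp windows both held a FOXA and a C/EBP match, in opposite order. In Alb the matches began at base -94 (C/EBP) and -128 (FOXA) from the RefSeq start, and in Afp at -89 and -55 in that order, beside a TATA match at -7. The gene positions given above come from another annotation, GENCODE, whose starts for Alb, Afp and Apoa1 differ from the RefSeq ones. For Afp the GENCODE start, base 90490737, lies downstream of the RefSeq start, so the TATA match lies further from it. Apoa1 held 2 FOXA matches, at -88 and -75, and Serpind1 held none of the motifs. Windows were at hand for 34 of the 38 genes (43 windows, since some genes have several starts). Matches to the FOXA letters stood in 30.2% of the 43 windows and in 8.48% of all 32851 windows of the RefSeq table. The shares were 30.2% and 10.8% for C/EBP, 23.3% and 13.6% for TATAAA, and 0% and 0.475% for CAAAGTCCA. Of the 12 genes with a window that were lower in Hepa1-6 sgB2m, 9 held a FOXA or C/EBP match, as did 3 of the 4 higher genes and 6 of the 12 that did not pass. These counts are per gene and for either motif, and the matching share over all genes was not computed. A link between matches and the changes was not tested. A match is a description of the letters in the window and says nothing of binding in these cells.

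Other genes of the hepatocyte programme were read from lists beside the 38, as counts of Hepa1-6 genes called against the 19.2% lower and 18.6% higher over all genes. The genes named are the 3 called ones of largest change among those that averaged 6 or above on the log2 scale in the group with more RNA, so a gene of lower level can have changed more. Of 35 tested further plasma protein genes, 10 fell and 6 rose (median -0.11). The haemoglobin scavenger Hp rose 3.72-fold, from 499.1 ± 25.6 to 1858 ± 99.9 (adjusted p = 1.3e-11), Angptl8, a regulator of lipoprotein lipase, rose 2.32-fold (adjusted p = 8.65e-05), and the apolipoprotein Apof fell 3.21-fold (adjusted p = 2.66e-05). Of 37 further liver transcription factors, 13 rose and 7 fell (median 0.13), among them the C/EBP family gene Cebpd (84 ± 13.1 to 452.6 ± 31.4, 5.37-fold, adjusted p = 5.83e-09), Rora (2.31-fold) and Ppargc1a (1.86-fold, adjusted p at most 0.0109 for both). Of 30 metabolic enzymes, 9 fell and 7 rose (median -0.0025). The sulfur amino acid enzymes Cbs and Cth moved apart, with Cbs 2.07-fold lower (adjusted p = 0.00603) and Cth 1.57-fold higher (adjusted p = 3.3e-06), and the carboxylesterase Ces1c fell from 108.1 ± 15.9 to 9.16 ± 15.9 (adjusted p = 0.000395). Of 23 transporters and receptors, 6 rose and 3 fell (median -0.0062), among them Egfr (1.53-fold higher), the FGF co-receptor Klb (1.5-fold lower) and Fgfr4 (1.47-fold higher), with adjusted p of at most 0.000448. Of 17 oncofetal and progenitor genes, 7 rose and 7 fell (median -0.04), with Sox4 2.55-fold and Igf2bp2 1.73-fold higher and Tbx3 1.82-fold lower (adjusted p at most 1.59e-06).

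Markers of other liver cells were also read in Hepa1-6, beside the 18.6% higher and 19.2% lower over all genes tested. The biliary shares (27.3% higher, 18.2% lower) and the stellate share higher (20%) are near these. The endothelial and myeloid shares higher (40% each) rest on 5 tested genes per list. Of 11 tested biliary markers, 3 rose and 2 fell (median 0.03), and their summed level was 955.2 to 991.8 RPM in sgB2m against 907 to 945.4 in sgNT. Osteopontin, Spp1, rose 4.03-fold, from 468.5 ± 19.2 to 1891 ± 104, and Sox9 rose 1.87-fold, while the anion exchanger Slc4a2 fell 1.45-fold (adjusted p at most 1.21e-06). Of 5 stellate and fibroblast markers 1 rose, which was Dcn (1.75-fold, adjusted p = 6.9e-06). Their sum was 613.4 to 641.7 against 594.4 to 613.6, and Lrat, Pdgfrb and Col3a1 had no reads. Of 5 endothelial markers 2 rose, among them the scavenger receptor Stab1 (3.14-fold, adjusted p = 0.000223). The median of the 5 was 1.26, and their summed level was 27.3 to 29.5 RPM against 24.9 to 28.2, and Cdh5, Kdr and Tek had no reads. Of 5 myeloid markers 2 rose, Cd68 (2.37-fold) and Cd14 (2.18-fold), and Csf1r fell 1.77-fold (adjusted p at most 0.000584). The myeloid sum was 204.2 to 212.2 against 166.8 to 182.9, and Adgre1, Clec4f, Marco and the C1q genes had no reads. Of the 10 markers of T and NK cells 8 had no reads, and of 2 tested erythroid markers none was called. The part of these markers in the changes of the 38 genes was not tested.

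Outside Hepa1-6 the programme was nearly silent. No read fell on 12 of the 38 genes in AKR, LLC1 or MC38, among them Alb, Ttr, the 3 fibrinogen chains, F2, Prox1 and Onecut1. Of the 12, Apoc3 had no read in Hepa1-6 either, and F10 and Plg had only 8 and 10 reads over its 6 libraries. In sgNT cells the level in RPM was highest in Hepa1-6 for 32 of the 38. The filter passed 8 genes in AKR, 9 in LLC1 and 6 in MC38, and the genes listed but not tested there had at most 56, 21 and 54 reads over 6 libraries. These tables were normalised separately, so levels across lines are given as RPM. Apoe stood at 1683 ± 23.6 RPM in Hepa1-6 sgNT, against 4.38 ± 0.277 in AKR, 3.07 ± 0.404 in LLC1 and 3.54 ± 0.648 in MC38. The bile acid receptor gene Nr1h4 was the exception of most weight, at 29.6 ± 2.88 in AKR sgNT and 1.98 ± 0.236 in Hepa1-6 sgNT, with 2.8 ± 0.063 in LLC1 and 1.17 ± 0.351 in MC38. Foxa1 stood at 7.47 ± 0.406 in Hepa1-6 and 7.2 ± 0.823 in MC38, which do not differ beyond their spread, and Foxa2 had reads in AKR (8.61 ± 0.771) and LLC1 (1.67 ± 0.376) and none in MC38.

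**Figure D3:**
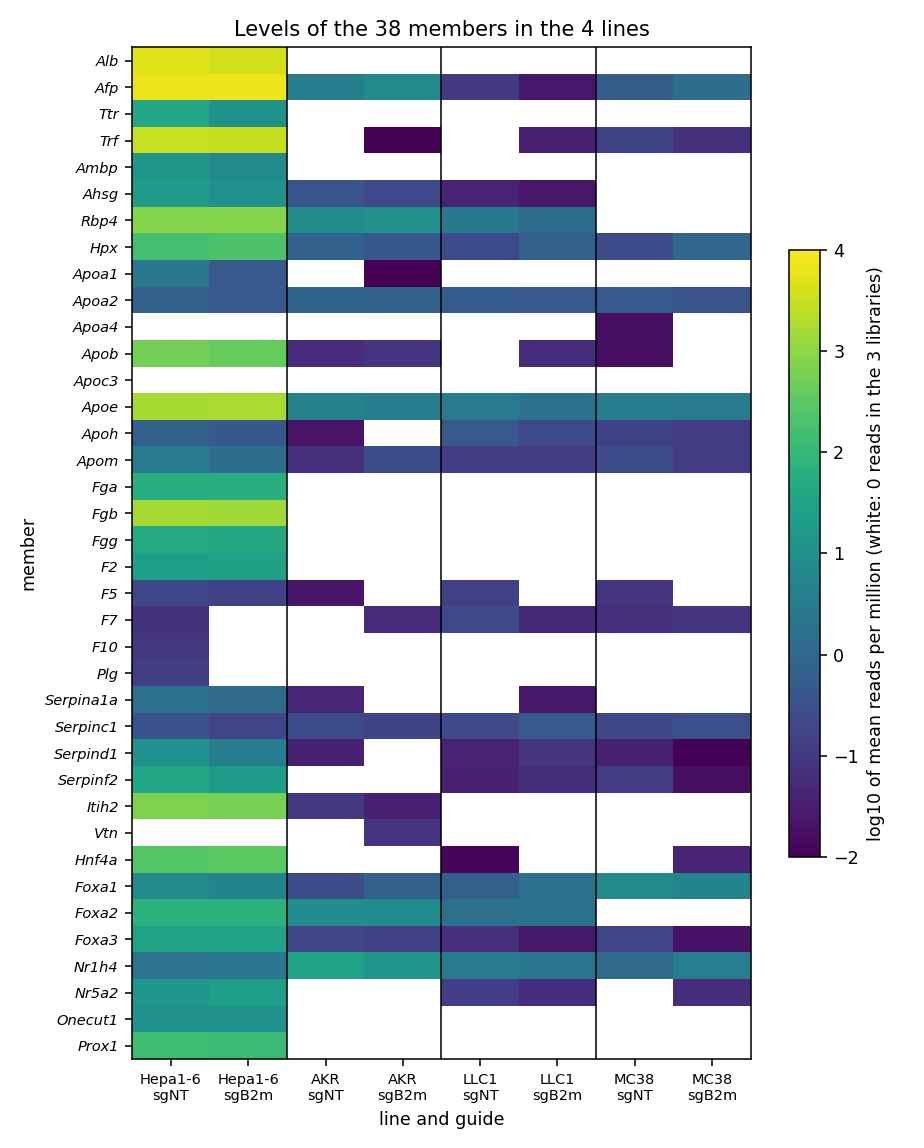
Mean RPM of the 38 genes in each line and guide, as log10 colours, with white for groups with 0 reads. The Hepa1-6 columns are filled for nearly all genes, while Alb and the fibrinogen chains are white in the other lines and the Nr1h4 row is brightest in AKR.

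The few genes tested in the other lines changed in unlike directions, and each share called rests on at most 9 genes. In AKR 2 of 8 rose and 1 fell, against 21% higher and 21.9% lower over all genes tested there. Afp rose 2.3-fold in AKR, from 90.4, 136.2 and 79.9 normalised counts in sgNT to 231.8, 221.4 and 236.1 in sgB2m (1.20 ± 0.19, adjusted p = 0.000418). Rbp4 rose 1.36-fold there (adjusted p = 0.00411). Nr1h4 fell 2.22-fold in AKR, from 941, 832.9 and 1017 to 428.8, 386.7 and 437.4, with no overlap (-1.15 ± 0.09, adjusted p = 3.81e-06). Hpx (-0.75 ± 0.34), Apoa2 (-0.25 ± 0.33), Apoe (-0.35 ± 0.16), Foxa1 (1.19 ± 0.64) and Foxa2 (-0.08 ± 0.11) did not pass in AKR. Hpx passed as lower without the intensity trend (adjusted p = 0.00461), Apoe without sgB2m replicate 1 (adjusted p = 0.0363) and Foxa1 without sgB2m replicate 2 (adjusted p = 0.0473).

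In MC38 2 of 6 rose and 1 fell, against 15.9% and 15.8%. There Nr1h4 rose 3.23-fold, from 55.3, 29.9 and 40.2 to 164.8, 102 and 140.6 (1.69 ± 0.29, adjusted p = 0.00157), and Afp rose from 21.2 ± 6.33 to 50.2 ± 12.5 (1.22 ± 0.35, adjusted p = 0.0253). Foxa1 fell in MC38 from 256.5 ± 30.1 to 187.2 ± 12.5 (-0.45 ± 0.14, adjusted p = 0.0353). The MC38 calls of Afp and Foxa1 each ended on removal of 1 library in 4 of 6 cases, the adjusted p reaching 0.102 and 0.124. Without sgB2m replicate 1 or replicate 3, 1 of the 3 MC38 calls was left. Hpx (2.31 ± 1.03), Apoa2 (-1.51 ± 1.07) and Apoe (-0.17 ± 0.20) did not pass, and Hpx passed without sgNT replicate 1 (adjusted p = 0.0397).

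In LLC1 2 of 9 rose and 2 fell (22.2% each way), which is near the 20.7% and 21.8% over all genes. Rbp4 fell from 74.6 ± 11.1 to 35.1 ± 9.22 (-1.09 ± 0.26, adjusted p = 0.0036) and Apoe from 84.6 ± 11.4 to 48.1 ± 8.53 (-0.81 ± 0.22, adjusted p = 0.00943). Foxa1 (1.25 ± 0.40, adjusted p = 0.0193) and Hpx (1.39 ± 0.51, adjusted p = 0.0409) rose in LLC1 on 183 and 75 reads over 6 libraries. Hpx passed the filter there only through its sgB2m libraries (28.7, 10.8 and 16.3 normalised counts), the group in which it was higher. Its sgNT counts (5.08, 4.94 and 8.41) all lay under the filter. The Hpx call and its place among the 2 that rose thus depend on that selection. Foxa1 lost its call with no filter (adjusted p = 0.0873), without the intensity trend (0.0698) and without sgB2m replicate 3 (0.095), sgNT replicate 1 (0.0711) or sgNT replicate 3 (0.0539). Hpx lost its call with no filter (adjusted p = 0.0775) and without sgNT replicate 1 (0.0856) or sgNT replicate 2 (0.0903). Only 3 of the 6 removals of 1 library left Hpx tested, and it lost its call in 2 of those. Without sgB2m replicate 3 or sgNT replicate 1, 2 of the 4 LLC1 calls were left. Apoa2 (0.03 ± 0.65), Apoh (-1.56 ± 0.80), Serpinc1 (1.31 ± 0.64), Foxa2 (0.03 ± 0.26) and Nr1h4 (-0.36 ± 0.22) did not pass in LLC1. Serpinc1 also passed the filter only through its sgB2m libraries (13.9, 11.8 and 12.4 normalised counts, against 1.02, 7.9 and 8.41 in sgNT). Its value and its place among the 9 genes tested carry the same selection as Hpx.

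**Figure D4:**
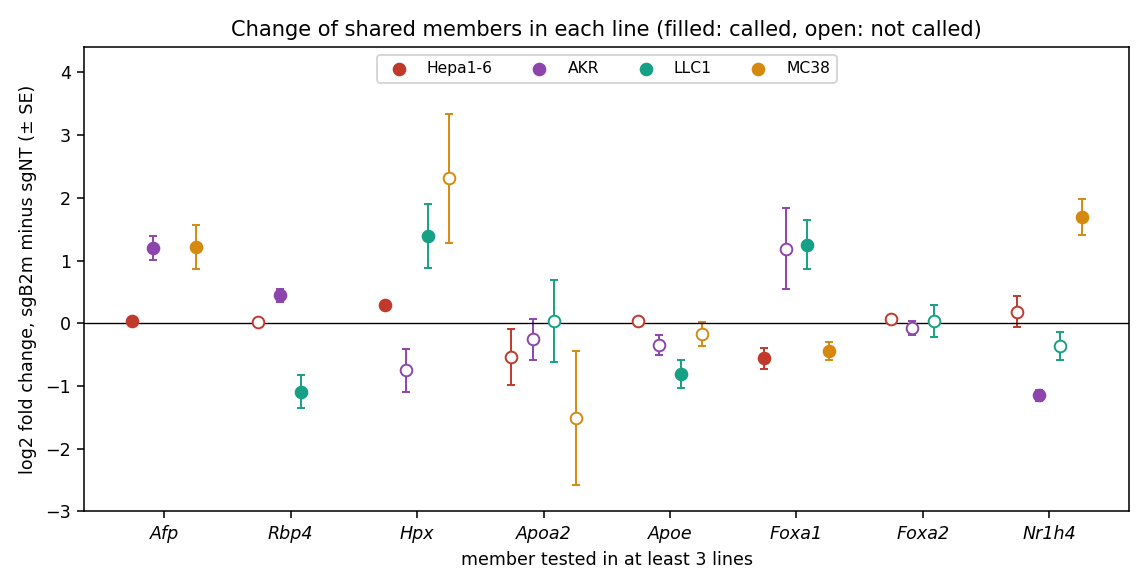
Log2 fold change, sgB2m minus sgNT with its standard error, of 8 genes tested in at least 3 lines, with filled points for called changes and open points for others. Nr1h4 lies at -1.15 in AKR and 1.69 in MC38, and Afp lies at 0.03 in Hepa1-6 and above 1 in AKR and MC38.

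Whether these changes differed from those in Hepa1-6 was tested as an interaction of line and guide, in which the separate normalisations cancel. All 3 tests share the Hepa1-6 libraries. Of 8 genes tested in both Hepa1-6 and AKR, the change of 6 differed, against 40.5% of all genes tested in both lines. For LLC1 it was 4 of 8, against 45.7%, and for MC38 2 of 6, against 34.5%, both near the share of all genes. The MC38 count became 4 without MC38 sgNT replicate 1. The change of Afp in Hepa1-6 was lower than in AKR by -1.17 ± 0.17 on the log2 scale (adjusted p = 6.53e-05) and lower than in MC38 by -1.18 ± 0.24 (adjusted p = 0.00165). The change of Nr1h4 was higher in Hepa1-6 than in AKR (1.33 ± 0.20, adjusted p = 6.39e-05) and lower than in MC38 (-1.51 ± 0.37, adjusted p = 0.00559). That of Foxa1, which fell in Hepa1-6, differed from the change in LLC1 by -1.82 ± 0.44 (adjusted p = 0.00278). Apoe, Rbp4 and Hpx differed both from AKR and from LLC1, with adjusted p of at most 0.017. The interaction fit takes a single variance per gene over both lines, although the levels of most of these genes differ widely between lines. Its standard error was below that of the other line's own change for Hpx against AKR (0.15 beside 0.34). The same held for Apoe against LLC1 (0.14 beside 0.22) and Afp against MC38 (0.24 beside 0.35). The adjusted p of such differences can thus be too small. The Hpx difference from LLC1 lost its call with no filter (adjusted p = 0.0552), without the intensity trend (0.058) and with a pseudocount of 8, where it was -0.57 (0.0672). Hpx also passed the filter in LLC1 only through its sgB2m libraries, so this difference carries that selection. The Apoe difference from AKR lost its call with no filter (adjusted p = 0.0502) and without the trend (0.0591).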

How the data were processed

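Bulk RNA-seq of 24 libraries was read from 1 table per cell line. The deposited values are log2 of the normalised count plus 1. The build mm10 and the tools STAR, DESeq2 and FastQC 0.11.5 are named for the authors' work per the submitters' processing notes; the counter, annotation and strand setting are not given in the sources used here. Dividing out each library's step recovered whole reads (within 0.05 read) for 100% of values, which gave depth and RPM (reads per 1 M counted reads). Genes not listed in a table were taken as 0 reads.

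A gene was tested in a line if it reached 3.5 on the log2 scale in 3 or more of 6 libraries, by a fit on the deposited log2 scale with limma 3.58.1 (moderated test with intensity trend, R 4.3.3), with Benjamini-Hochberg adjustment over all genes tested and a threshold of 0.05. Fold changes are on the log2(count + 1) scale, so for low genes they can fall short of the ratio of group means, or exceed it where libraries of a group differ. Lines were compared by an interaction term over 12 libraries, with a single variance per gene over both lines. The fit was tested on simulated data. Lengths and positions came from GENCODE M21 (GRCm38) and promoters from RefSeq. A further promoter motif that was searched is not reported here. Alternatives were other filters, pseudocounts, scalings and variance models, a replicate block and each library left out.

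Same-numbered libraries did not deviate together (correlations of -0.0087 to 0.034 in Hepa1-6, and of -0.028 to 0.051 in the other lines), so no pairing was used. The members and lists were chosen with earlier results of these data known. Library values are given for Hepa1-6 genes called with at least a 2-fold change and for Alb, Afp, Ttr and Hnf4a. Of each further list, the 3 called genes of largest change are named where the group with more RNA averaged 6 or above on that scale.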

Additional observations from a re-analysis of the deposited data

Results flagged for a closer look

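The change from sgNT to sgB2m differed between Hepa1-6 and another line, by the interaction test, in 12 cases. Over all genes tested in both lines, 40.5% differed for AKR, 45.7% for LLC1 and 34.5% for MC38. The shares of the tested members that differed from LLC1 and from MC38 are near these. All 12 cases share the Hepa1-6 libraries, and values are the log2 change in Hepa1-6 minus that in the other line. The fit takes a single variance per gene over both lines, so its adjusted p can be too small, as described above. Against AKR the difference was -1.17 for Afp, 1.05 for Hpx, 1.33 for Nr1h4, -1.75 for Foxa1, 0.39 for Apoe and -0.42 for Rbp4. The Foxa1 difference from AKR lost its call in 8 of the 9 removals of 1 library that left it tested (adjusted p of 0.0579 to 0.118 in those), and also with no filter (0.122), without the intensity trend (0.103) and with robust empirical Bayes (0.0598). Against LLC1 the difference was -1.09 for Hpx, -1.82 for Foxa1, 0.85 for Apoe and 1.11 for Rbp4. Hpx passed the filter in LLC1 only through its sgB2m libraries, where it was higher. Against MC38 the difference was -1.18 for Afp and -1.51 for Nr1h4. Groups of 3 libraries were not tested for single outlying libraries.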

How the results depend on the processing

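In Hepa1-6, the count of the 38 genes called was 18 and lay between 16 and 19 under all alternatives run (3 to 5 higher, 13 to 14 lower). Of the 18, 14 were called in every one, and Afp, Trf, Foxa1 and Apom lost the call in at least 1. Leaving out each library gave 16 to 18 calls in Hepa1-6, 3 to 4 in AKR, 2 to 3 in LLC1 (4 with all libraries) and 1 to 3 in MC38 (3 with all). Calls over all genes moved too, to 4790 to 5058 in Hepa1-6 (5637 with all libraries) and 5733 to 6657 in AKR (6815 with all). They were 5623 to 6163 in LLC1 (6503 with all) and 3858 to 6082 in MC38 (5251 with all). Without the intensity trend, 4146 genes were called in Hepa1-6. Whether the counts of the 38 follow those over all genes was not tested. Against MC38 the interaction gave 2 to 4 calls. The difference in the share of reads, -0.14 percentage points, was -0.0473 without Alb and Afp, -0.167 with mitochondrial transcripts left out, and -0.146 to -0.134 with each library left out. None of the called Hepa1-6 changes reversed. Uncalled values that changed sign were Rbp4 in Hepa1-6 (-0.0075, median-centred), Onecut1 in Hepa1-6 (-0.012 to 0.17 with each library left out), Apoa2 in LLC1 (-0.070 with a pseudocount of 8, and -0.80 to 0.55 with each library left out) and Foxa2 in LLC1 (-0.078 to 0.20 with each library left out). The cause was not tested. The replicate block gave 18 calls in Hepa1-6, as without it, and changed no call of the 38 genes in any line. Depth limited F5, F7, F10, Plg and Serpinc1, which had at most 42 reads over the 6 Hepa1-6 libraries.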
